A study of Mus musculus with 12 samples.

Results

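The 40 genes described here encode the enzymes of pyruvate entry, the TCA cycle and mitochondrial fatty acid oxidation, with the acyl-CoA synthetases and carnitine transferases that feed fatty acids into it. They were chosen by name and not by a rule on their values, though with earlier results of these data known. All 40 were found among 21135 genes in RNA-seq data from cells labelled as primary microglia, the resident macrophages of the brain. Of these, 39 passed the filter on low values, which 10636 genes passed in all (at least 1 FPKM, a fragment count relative to transcript length and library size, in at least 3 of 6 profiles). The cells were sorted by flow cytometry from mouse midbrain. KO animals had the genotype Ppargc1a FF CreER and WT animals the genotype Ppargc1a FF, so the floxed Ppargc1a allele was shared and CreER, the tamoxifen-activated recombinase, was not. The promoter that drives CreER is not given in the sources used here. The 4 groups were KO with MPTP, KO with PBS, WT with MPTP and WT with PBS, and the samples of all 4 were taken 6 weeks after tamoxifen. MPTP is a toxin of dopaminergic neurons and PBS the control. Age, sex, dose and the interval after MPTP are not given in the labels. The labels do not say whether the numbered samples of 1 group are different animals, and the p-values therefore rest on a spread that may be technical.

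The table has 12 columns, 3 per group, but 6 of them are arithmetic copies of others. In each group, column 3 is 0.1 plus 0.99 times the mean of columns 1 and 2. WT MPTP 2 is 1.02 times WT MPTP 1, and KO MPTP 1 is a copy of KO PBS 2 by the same factor, across treatments. The relations held to rounding in all but 49 rows of 67355, which lie in 42 genes, and Acsl1 was the only member with such a row. The 6 separate profiles are KO MPTP 2, KO PBS 1, KO PBS 2, WT MPTP 1, WT PBS 1 and WT PBS 2. KO PBS 2 carries both treatment labels, so comparisons between treatments used the other 5 profiles, where WT PBS had 2 and every other group 1. Columns summed to between 388861 and 434022 FPKM, and the read depth is unknown. Ppargc1a, the targeted gene, had 0.22, 0.42 and 0.51 FPKM in KO MPTP 1 to 3, 0.33, 0.12 and 0.42 FPKM in KO PBS 1 to 3, 2.72, 2.83 and 2.95 FPKM in WT MPTP 1 to 3, and 5.70, 6.21 and 5.60 FPKM in WT PBS 1 to 3. Every KO column was below every WT column, but Ppargc1a also has a row off the relations. Of 9 markers of homeostatic microglia, 6 were under 1 FPKM on average, with Cx3cr1 at 0.05, P2ry12 at 0.19 and Sall1 at 0 FPKM. The defining markers of microglia were thus at or near 0, which goes against the label, and the samples are called here by genotype and treatment. The 11 macrophage markers in the table had a median of 117 FPKM, and the medians of the neuron, oligodendrocyte, astrocyte, endothelial, lymphocyte, granulocyte and erythroid lists were between 0.01 and 0.74 FPKM. Single markers of these lists had higher means, with Flt1 (endothelial) at 86.9 FPKM, Cnp (oligodendrocyte) at 7.57, S100a8 (granulocyte) at 4.52 and Aldh1l1 (astrocyte) at 2.91 FPKM. The macrophage markers summed to between 2794 and 3047 FPKM in KO profiles and to between 3107 and 3200 FPKM in WT profiles. These sums are as deposited, without rescaling between profiles. On that scale 7.19% of all genes tested had every KO profile below every WT profile. The part of these sums in the differences between genotypes was not tested.

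The pyruvate dehydrogenase complex turns pyruvate into acetyl-CoA, and each turn of beta-oxidation cuts another acetyl-CoA from a fatty acid. The TCA cycle oxidises acetyl-CoA and passes the electrons to the respiratory chain, while the acyl-CoA dehydrogenases pass theirs through the electron transfer flavoprotein. Ppargc1a encodes PGC-1alpha, a transcriptional coactivator that works with nuclear receptors such as the PPARs and the estrogen-related receptors, and many of these enzymes are known as its targets in muscle, heart and liver. Macrophages use fatty acid oxidation and the TCA cycle to different degrees in different activation states.

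The promoters of the members were searched for AAGGTCA, the core of the element that estrogen-related receptors bind, on both strands (TGACCTT on the opposite strand). RefSeq windows on GRCm38.p6, of 250 bases before to 50 after the start, were found for 36 of the 40 members. The motif was in a window of Acadm and in 1 of the 6 windows of Ogdh, both among the members called below. These are shown 5′ to 3′ on the strand of the gene with the motif in capitals. The Acadm window is chr3:153944594-153944893 on the minus strand, with the motif from base 2, and the Ogdh window is chr11:6291920-6292219 on the plus strand, with the motif from base 246. In both, the letters are those of the opposite strand.
Acadm: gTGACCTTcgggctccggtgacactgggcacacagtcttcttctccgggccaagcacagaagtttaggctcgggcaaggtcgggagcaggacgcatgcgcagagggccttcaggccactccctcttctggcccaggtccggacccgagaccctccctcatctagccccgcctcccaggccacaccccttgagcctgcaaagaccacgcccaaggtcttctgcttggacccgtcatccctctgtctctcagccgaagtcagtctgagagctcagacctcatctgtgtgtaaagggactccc
Ogdh: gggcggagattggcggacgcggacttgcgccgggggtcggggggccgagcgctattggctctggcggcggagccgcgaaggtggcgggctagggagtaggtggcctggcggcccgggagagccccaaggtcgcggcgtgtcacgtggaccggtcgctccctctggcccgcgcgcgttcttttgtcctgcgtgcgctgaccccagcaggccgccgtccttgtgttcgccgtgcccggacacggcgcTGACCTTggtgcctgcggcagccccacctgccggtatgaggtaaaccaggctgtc
That is 2 of 36 members, or 5.56%, against 1454 of 27025 gene symbols, or 5.38%. The share among members was thus near that of all promoters. No window of Dlat or Acsl1 held these letters.

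The enzymes were well expressed in every profile. Mean levels of the 39 tested members ran from 12 FPKM, for Etfdh, to 196 FPKM, for Mdh2, with a median of 38.9 FPKM, against 10.2 FPKM over all genes tested. The highest were Mdh2, mitochondrial malate dehydrogenase (196 FPKM), Idh3b, a subunit of the NAD-dependent isocitrate dehydrogenase (162 FPKM), Dld, the lipoamide dehydrogenase shared by the pyruvate and oxoglutarate complexes (99.8 FPKM), Idh3g, another isocitrate dehydrogenase subunit (99.6 FPKM), Mdh1, the cytosolic malate dehydrogenase (99.6 FPKM), and Idh2, the mitochondrial NADP-dependent enzyme (86.2 FPKM). Of these, all but Mdh1, which works in the malate-aspartate shuttle, serve the cycle in the mitochondrion or its entry. The highest member of fatty acid oxidation was Acadm, medium-chain acyl-CoA dehydrogenase, at 58.0 FPKM. FPKM is scaled to transcript length, so levels may be set beside each other between genes.

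Within pyruvate entry, Pdha1 and Pdhb, the E1 subunits, had means of 44.8 and 48.2 FPKM, Dlat, the E2 acetyltransferase, 35.4 FPKM, and Pcx, pyruvate carboxylase, 12.5 FPKM. In the cycle, citrate synthase (Cs) had 74.6 FPKM, Idh3a 42.1 FPKM, Ogdh, the oxoglutarate dehydrogenase E1 subunit, 35.7 FPKM. Dlst, the E2 subunit of the same complex, ranged from 38.95 to 42.22 FPKM over the 6 profiles. The succinyl-CoA ligase subunits had 51.8 FPKM for Suclg1, which both forms of the enzyme share, 23.7 FPKM for the GTP-specific Suclg2 and 21.4 FPKM for the ATP-specific Sucla2. Fumarate hydratase (Fh1) had 57.1 FPKM.

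Among the enzymes that activate long-chain fatty acids, Acsl1 had the highest mean, 45.0 FPKM, ahead of Acsl3 with 36.9, Acsl5 with 31.7 and Acsl4 with 20.2 FPKM, but the mean of Acsl3 rests on 1 profile and its median lay below those of Acsl5 and Acsl4. The carnitine palmitoyltransferases Cpt1a, at the outer membrane, and Cpt2, at the inner one, had 16.6 and 15.0 FPKM. Of the other acyl-CoA dehydrogenases, Acadl (long-chain) had 38.9 FPKM, Acads (short-chain) 20.7 FPKM and Acadvl (very long-chain) 12.3 FPKM. The trifunctional protein subunits Hadha and Hadhb had 51.2 and 44.3 FPKM, the hydratase Echs1 48.6 FPKM, the hydroxyacyl-CoA dehydrogenase Hadh 34.1 FPKM, and the thiolases Acat1, Acaa2 and Acaa1a 30.0, 24.5 and 20.6 FPKM. Acaa1a is peroxisomal and has a near copy, Acaa1b, at 0.0117 FPKM, so the split of reads between them is uncertain. The isomerase Eci1 had 14.5 FPKM. The electron transfer flavoprotein had 56.1 FPKM for Etfa and 34.8 FPKM for Etfb, and its dehydrogenase Etfdh 12 FPKM. Decr1, the dienoyl-CoA reductase needed for polyunsaturated fatty acids, was listed at 0 in all 6 separate profiles, had 1 row, and was not tested. Every other member thus had a mean above 10 FPKM.

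**Figure D1:**
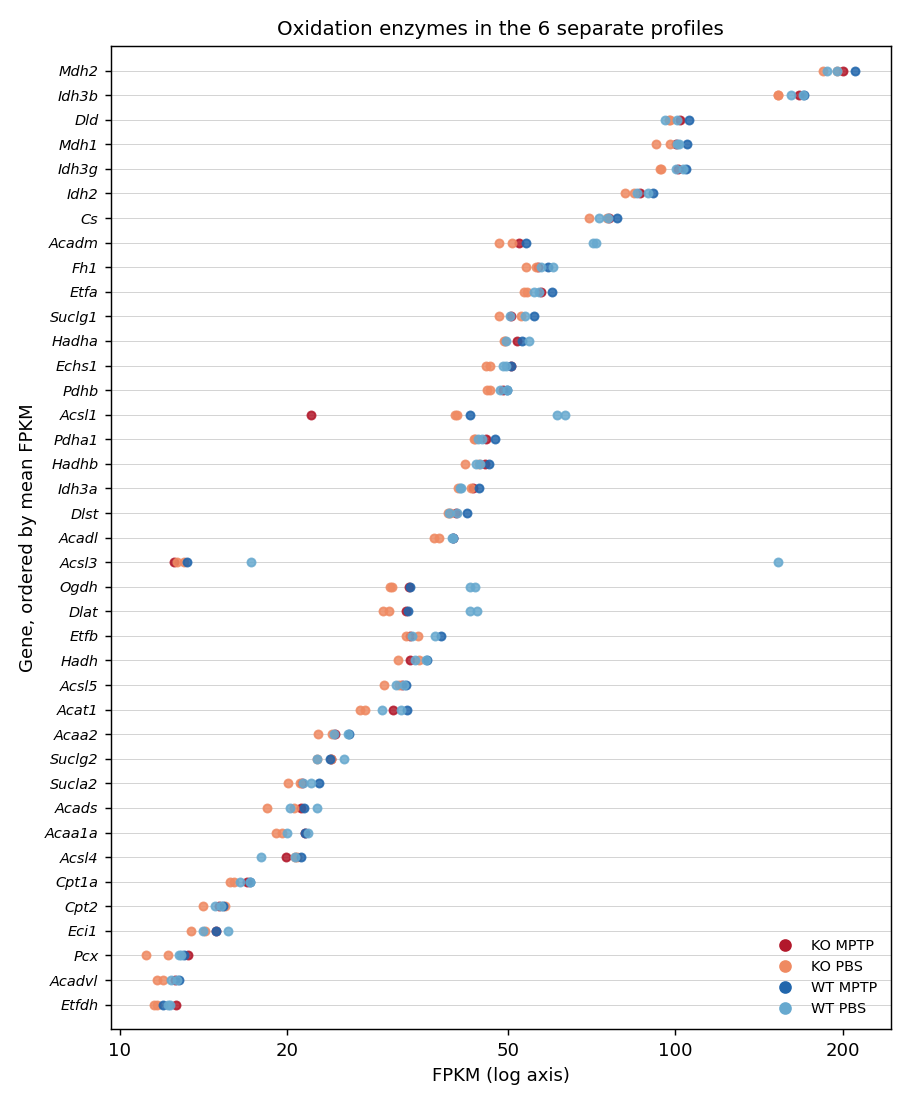
FPKM of the 39 tested enzymes (log axis) in the 6 separate profiles, 1 point per profile, coloured by group, with genes ordered by mean. The 6 points of most genes lie close together, while the 2 WT PBS points of Acadm, Dlat and Ogdh lie to the right of the other 4, Acsl1 also has its KO MPTP point far to the left, and 1 WT PBS point of Acsl3 lies at 153 FPKM.

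For 34 of the 39, the coefficient of variation over the 6 profiles lay between 3.09% (Dlst) and 7.86% (Acat1). The median of all 39 was 4.38%, against 5.59% over all genes tested. The other 5 members were Acsl1 (34.0%), Acadm (18.3%), Dlat (17.7%), Ogdh (16.4%) and Acsl3 (154%). In each of these 5, both WT PBS profiles were above the other 4, a pattern chosen after the values were seen. Over all genes it was found in 3.9%, 415 of 10636, and with TMM rescaling, a normalisation that sets most genes level, 8 members and 7.35% of all genes had it. The gap between the lower WT PBS profile and the highest of the other 4 was 0.51 on the log2(FPKM + 1) scale for Acsl1, 0.39 for Acadm, 0.36 for Dlat, 0.36 for Acsl3 and 0.35 for Ogdh, and the next member, Acadl, had -0.01. A gap over 0.3 was found in 27 of all genes tested, or 0.254%, and these 5 members are among them. That limit lies just below the smallest of their gaps, so their passing it is no test.

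Without toxin, 4 members were lower in KO than in WT, each at a different step: activation (Acsl1), the first dehydrogenation of medium-chain fatty acids (Acadm), entry of pyruvate (Dlat) and the cycle (Ogdh). CreER was in KO animals only, so loss of Ppargc1a and presence of CreER cannot be told apart. Setting KO PBS against WT PBS compares the genotypes in cells of animals without MPTP. This called 0.226% of all genes (24 of 10636, all lower in KO) and 4 of the 39 members, again all lower in KO. The fit used KO PBS 1, and KO PBS 2 is given beside it. The treatment of KO PBS 2 is not known, so the KO PBS values below are not a pair of untreated replicates. Without the filter on low values no member was called here (adjusted p = 0.372 for each of the 4) or in any other comparison. In bulk samples, fewer cells of a type and less RNA per cell cannot be told apart.

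Acsl1 encodes the long-chain acyl-CoA synthetase of oxidative tissues. It had 40.1 FPKM in KO PBS 1 and 40.5 FPKM in KO PBS 2, against 63.2 and 61.2 FPKM in WT PBS 1 and 2. Both KO values lay well below both WT values. The log2 difference was -0.62 ± 0.08 (SE), with a limma adjusted p of 0.0084. With KO MPTP 1 counted as a KO MPTP sample, the adjusted p was 0.239. Leaving out the 42 genes with a row off the relations removes Acsl1 itself.

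Dlat had 29.7 and 30.5 FPKM in KO PBS 1 and 2, against 44.0 and 42.7 FPKM in WT PBS 1 and 2. Both KO values lay below both WT values, and the log2 difference was -0.53 ± 0.08 (SE, limma adjusted p = 0.0248). The other subunits of the complex did not pass the test: Pdha1 had 43.4 and 43.5 FPKM in KO PBS against 44.1 and 44.8 FPKM in WT PBS. Pdhb had 45.8 and 46.4 FPKM in KO PBS against 48.3 and 49.7 FPKM in WT PBS. Dlat alone was called of the 4 members in this complex, and a difference between its subunits was not tested.

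Acadm had 50.8 and 48.0 FPKM in KO PBS 1 and 2, against 71.0 and 71.9 FPKM in WT PBS 1 and 2, with a log2 difference of -0.49 ± 0.08 (SE, limma adjusted p = 0.0367). The WT values were close to each other and both KO values were lower. Ogdh had 30.9 and 30.7 FPKM in KO PBS, against 42.7 and 43.5 FPKM in WT PBS. The log2 difference was -0.47 ± 0.08 (SE), just inside the threshold with a limma adjusted p of 0.0488. For Dlat and Ogdh, leaving out WT PBS 1 gave an adjusted p of 0.0612 each, and for Ogdh leaving out WT PBS 2 gave 0.0522, in fits that count KO PBS 2 as KO PBS. With a pseudocount of 0.1 in place of 1, the adjusted p was 0.0541 for Acadm and 0.0727 for Ogdh. The fit without WT PBS 1 called 2 members, Acadm and Acsl1.

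**Figure D2:**
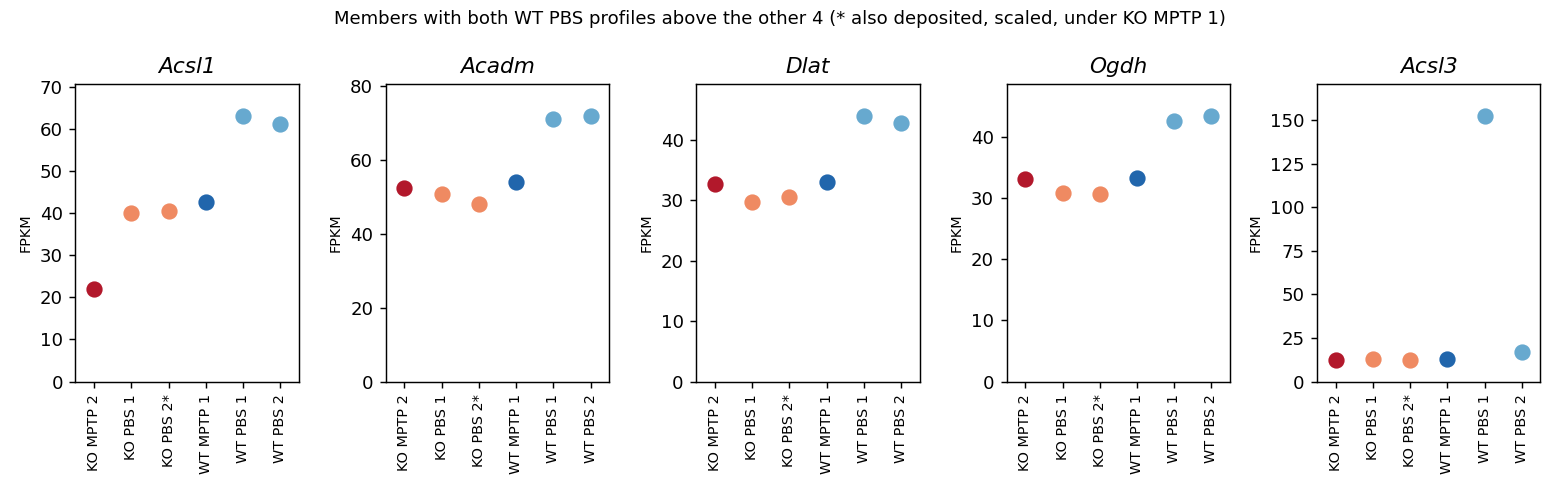
FPKM of Acsl1, Acadm, Dlat, Ogdh and Acsl3 in the 6 separate profiles (1 point each, every axis from 0), KO left of WT. In Acadm, Dlat and Ogdh the KO MPTP, KO PBS and WT MPTP points are level and the WT PBS points higher. Acsl1 has a further low point in KO MPTP 2, at 22.1 FPKM, and Acsl3 has 1 high point in WT PBS 1, at 153 FPKM.

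The largest difference in size was that of Acsl3, an acyl-CoA synthetase of the endoplasmic reticulum and lipid droplets, and it rested on 1 profile. Acsl3 had 13.0 and 12.7 FPKM in KO PBS 1 and 2, against 153 FPKM in WT PBS 1 and 17.2 FPKM in WT PBS 2. The log2 difference was -1.91 ± 0.84 (SE, limma adjusted p = 0.909). The WT PBS profiles differed from each other by 3.08 on the log2 scale, the largest such difference of all genes tested, and next among members was Acsl4 with 0.19. The excess lay in 1 row of the table, with 12.3 and 11.4 FPKM in KO PBS, against 152 and 15.6 FPKM in WT PBS 1 and 2. With WT PBS 2 left out, which leaves the high profile alone, and KO PBS 2 counted as KO PBS, Acsl3 was called as well.

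The other members did not pass the test in this comparison. Differences above 0 were found in 3 of the 39, Acsl4 at 0.11, Cpt2 at 0.04 and Suclg2 at 0.00, against 22.1% of all genes. The median difference of the members was -0.10, against -0.06 over all genes. After rescaling each profile by TMM it was -0.04 for the members, with 10 of 39 above 0, against 0.00 and 50.8% for all genes. The same 4 members were called, among 33 of all genes. By step, the median was -0.07 for pyruvate entry, -0.11 for the TCA cycle, -0.08 for activation and the carnitine shuttle, -0.16 for the acyl-CoA dehydrogenases, -0.12 for the later steps of beta-oxidation, and -0.07 for the flavoprotein genes. With TMM these medians ran from -0.09, for the acyl-CoA dehydrogenases, to 0.00, for pyruvate entry.

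**Figure D3:**
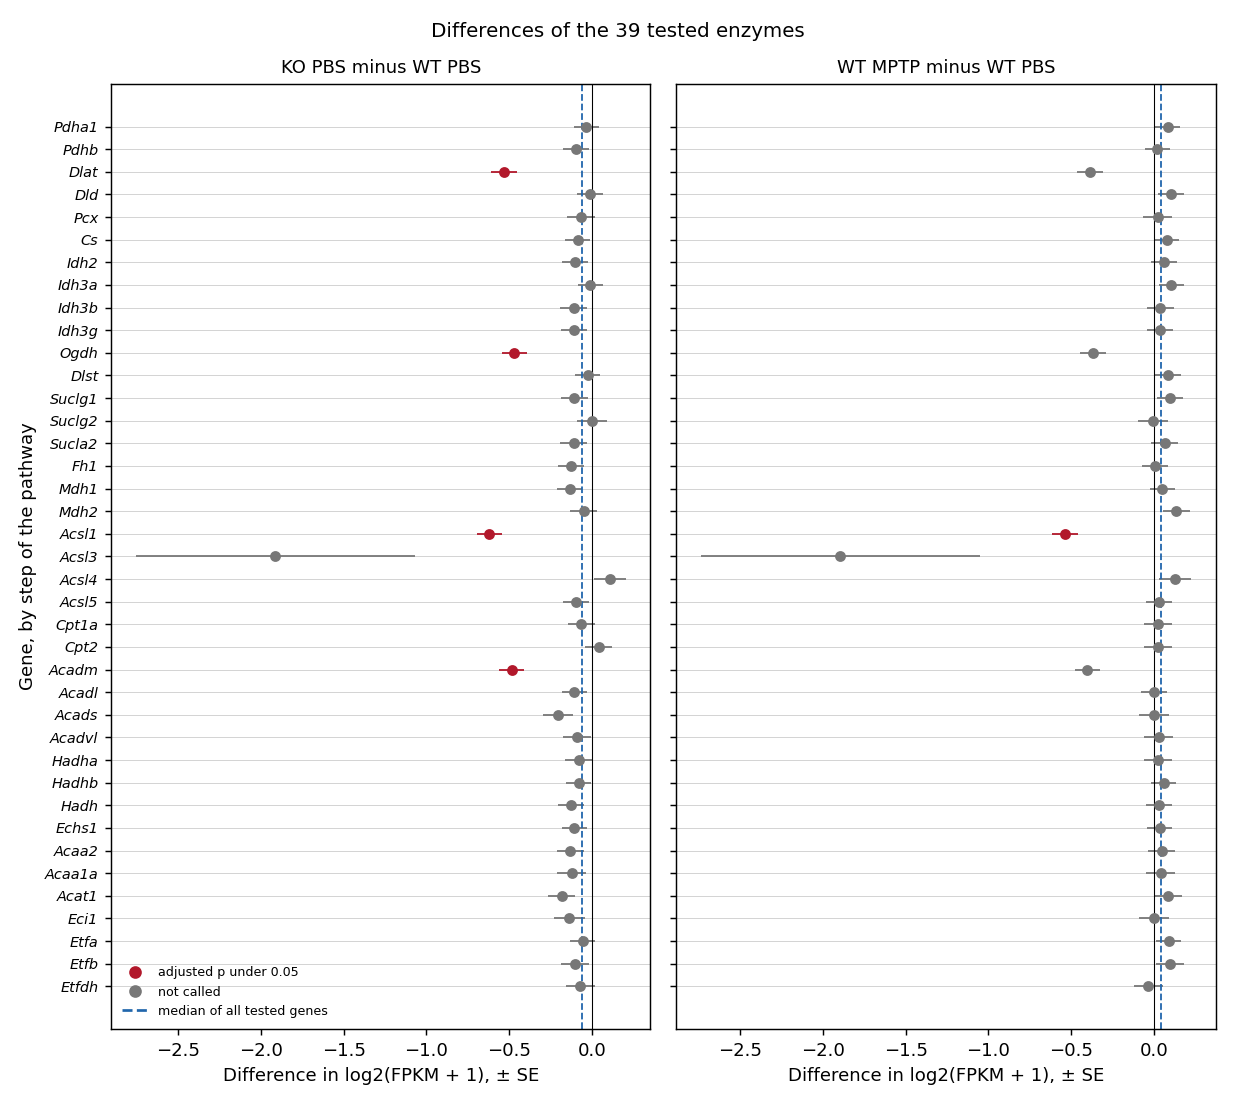
Differences of the 39 tested enzymes on the log2(FPKM + 1) scale, KO PBS minus WT PBS on the left and WT MPTP minus WT PBS on the right, with SE bars from limma; red points passed an adjusted p of 0.05 and the dashed line is the median of all genes tested. Most points lie near the dashed line, at -0.06 on the left and 0.04 on the right, and Acsl1, Acadm, Dlat, Ogdh and Acsl3 lie below it in both panels, which share the WT PBS profiles.

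MPTP in WT was set against the same WT PBS profiles, so the differences of this comparison and of the last are not independent. Acsl1 fell, and it was the only member called, while the median member lay at 0.04 on the log2 scale, as did the median of all genes. The comparison called 0.254% of all genes (27 of 10636, 5 higher and 22 lower). Acsl1 had 42.6 FPKM in WT MPTP 1, against 63.2 and 61.2 FPKM in WT PBS 1 and 2. The log2 difference was -0.54 ± 0.08 (SE, limma adjusted p = 0.0173). With WT PBS 1 left out and KO PBS 2 counted as KO PBS, so that the spread came from the KO PBS pair, the difference was -0.51 with an adjusted p of 0.12, and no member was called. Counting KO MPTP 1 as KO MPTP, which alters the estimate of the spread, gave an adjusted p of 0.543.

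Acadm had 53.9 FPKM in WT MPTP 1, against 71.0 and 71.9 FPKM in WT PBS, and a log2 difference of -0.40 ± 0.08 (SE) that missed the threshold (limma adjusted p = 0.102). Dlat had 32.9 FPKM in WT MPTP 1, against 44.0 and 42.7 FPKM in WT PBS, at -0.39 ± 0.08 (SE, limma adjusted p = 0.156). Ogdh had 33.3 FPKM in WT MPTP 1, against 42.7 and 43.5 FPKM in WT PBS, at -0.37 ± 0.08 (SE, limma adjusted p = 0.201). In all 3 the WT MPTP value lay below both WT PBS values and close to the KO values. With TMM rescaling these 3 passed the test too, with adjusted p of 0.00482 for Acadm, 0.00945 for Dlat and 0.0142 for Ogdh.

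Acsl3 had 13.2 FPKM in WT MPTP 1, against 153 and 17.2 FPKM in WT PBS (log2 difference -1.90 ± 0.84, SE, limma adjusted p = 1). Its level in WT MPTP was close to that of the KO profiles. The largest positive differences, none past the test, were those of Mdh2 (0.14), Acsl4 (0.13), Idh3a (0.11) and Dld (0.11). Of the 39 members, 32 were above 0, against 73.0% of all genes. With TMM rescaling 16 members were, with a median of -0.01, against 51.9% of all genes, with a median of 0.00.

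In KO, MPTP was compared through 1 profile on each side, KO MPTP 2 and KO PBS 1, so the spread comes from the WT PBS pair. The comparison called 0.291% of all genes (31 of 10636, 23 higher and 8 lower, or 32 and 19 with TMM rescaling). Acsl1 was the only member called. It had 22.1 FPKM in KO MPTP 2, against 40.1 FPKM in KO PBS 1, a ratio of 0.561 between the FPKM + 1 values. The log2 difference was -0.83 ± 0.09 (SE, limma adjusted p = 0.004). KO MPTP 2 had the lowest value of the 6 profiles.

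The second KO MPTP column does not give an independent value. KO MPTP 1 listed Acsl1 at 31.3 FPKM, and its main row at 29.2 FPKM. The relation to KO PBS 2, which had 38.4 FPKM in that row, would give 39.2 FPKM, so the deposited value is 10 FPKM lower. This is the only row of the 40 members that departs from a relation. With KO MPTP 1 counted as a KO MPTP sample, the difference was -0.59 with a limma adjusted p of 0.414.

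Acadm, Dlat and Ogdh gave values at or just above 0. Acadm had 52.3 FPKM in KO MPTP 2, against 50.8 FPKM in KO PBS 1 (log2 difference 0.04 ± 0.09, SE). Dlat had 32.7 FPKM in KO MPTP 2, against 29.7 FPKM in KO PBS 1 (0.13 ± 0.09, SE). Ogdh had 33.2 FPKM in KO MPTP 2, against 30.9 FPKM in KO PBS 1 (0.10 ± 0.09, SE). None of the 3 passed the test. The most negative values after Acsl1 were those of Acsl4 (-0.06), Acsl3 (-0.05) and Cpt2 (-0.03), and the most positive those of Acat1 and Acads (0.19 each), Acaa1a (0.17) and Echs1 (0.15), none past the test. The median member lay at 0.095 with 34 of 39 above 0, against 0.094 and 86.4% for all genes. TMM rescaling moved these medians to -0.01 for members, with 14 of 39 above 0, and to 0.00 for all genes, with 47.9% above 0.

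Under MPTP, Acsl1 was lower in KO than in WT, and the log2 differences of the other 38 members lay between -0.18 and 0.07. This comparison, of 1 profile with 1, called 0.132% of all genes (14 of 10636, 7 in each direction, or 32 higher and 9 lower with TMM rescaling). Acsl1 had 22.1 FPKM in KO MPTP 2, against 42.6 FPKM in WT MPTP 1. The log2 difference was -0.92 ± 0.09 (SE, limma adjusted p = 0.00283), and -0.68 with an adjusted p of 0.329 where KO MPTP 1 was counted. The differences of the others called without toxin were -0.04 ± 0.09 for Acadm, -0.01 ± 0.09 for Dlat and 0.00 ± 0.09 for Ogdh (SE), and none passed. Values past Acsl1 were -0.18 for Etfb, -0.13 for Suclg1 and -0.10 for Hadh, and the highest were 0.07 for Etfdh, 0.02 for Pcx, and 0.00 for Suclg2 and Acaa1a, none past the test. The median was -0.04, against -0.01 over all genes. Above 0 were 6 of 39 members (7 with TMM rescaling), against 45.7% of all genes (47.5% with TMM rescaling).

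Whether the MPTP difference itself varied with genotype was tested as an interaction, the MPTP difference in KO minus that in WT. It called 0.0752% of all genes (8 of 10636, all positive, or 29 positive and 4 negative with TMM rescaling) and no member by limma. At an unadjusted limma p under 0.05 were 4 of 39 members and 551 of 10636 genes. The values were 0.52 ± 0.12 for Dlat (SE, adjusted p = 0.236), 0.46 ± 0.12 for Ogdh (adjusted p = 0.31) and 0.44 ± 0.12 for Acadm (adjusted p = 0.341). In all 3 the WT MPTP value lay below both WT PBS values, while the KO MPTP value was no lower than KO PBS 1. Acsl1 had -0.30 ± 0.12 (SE, adjusted p = 0.824), with a low value under MPTP in both genotypes. Acsl3 had 1.84 ± 1.29 (SE, adjusted p = 1), and Acsl4, Etfb and Cpt2 had -0.19, -0.08 and -0.06. A different MPTP response between genotypes was therefore not shown for any member.

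Over both treatments, 3 KO profiles can be set against 3 WT profiles, with KO PBS 2 included since its genotype is not in doubt. By limma, no member was called of 39, against 0.0752% of all genes (8 of 10636, all lower in KO, and 0 with TMM rescaling). At an unadjusted limma p under 0.05 were 6 of 39 members and 372 of 10636 genes. With treatment as a covariate 1 member was called, Acsl1, and with WT MPTP 1 left out 4 were, Acsl1, Acadm, Dlat and Ogdh. Mean levels were 34.2 ± 10.5 FPKM in KO and 55.7 ± 11.4 FPKM in WT for Acsl1, and 50.4 ± 2.17 FPKM in KO and 65.6 ± 10.1 FPKM in WT for Acadm (SD, n = 3 each). Dlat had 31.0 ± 1.54 FPKM in KO and 39.9 ± 6.04 FPKM in WT, and Ogdh 31.6 ± 1.37 FPKM in KO and 39.8 ± 5.72 FPKM in WT (SD, n = 3 each). In all 4 every KO profile was below every WT profile, the WT MPTP profile being the lowest of the WT group.

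The log2 differences between KO and WT were -0.71 ± 0.17 for Acsl1 (SE, limma adjusted p = 0.139), -0.36 ± 0.08 for Acadm (0.128), -0.35 ± 0.08 for Dlat (0.168), -0.32 ± 0.08 for Ogdh (0.226) and -1.31 ± 0.52 for Acsl3 (0.997). With no overlap between genotypes, an exact two-sided permutation test can give only p = 0.10, the smallest that 3 against 3 allows, and of these 4 genes Dlat alone kept that order with TMM rescaling. Values above 0 were found for Acsl4 (0.04) and Idh3a (0.01) only, 2 of 39, against 30.5% of all genes. With TMM rescaling 7 members were above 0, against 52.5% of all genes. The median member lay at -0.07, against -0.03 over all genes, and at -0.03 against 0.00 with TMM rescaling.

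All 3 KO profiles were below all 3 WT profiles in 8 of 39 members, against 7.19% of all genes (765 of 10636). These were Acsl1, Acadm, Dlat, Ogdh, Acsl3, Sucla2, Fh1 and Mdh1, and no member had all KO profiles above. In the last 3 the gap was small: Sucla2 had at most 21.3 FPKM in KO and at least 21.4 FPKM in WT, Fh1 at most 56.6 FPKM in KO and at least 57.3 FPKM in WT, and Mdh1 at most 100.3 FPKM in KO and at least 100.8 FPKM in WT. With TMM rescaling 4.76% of all genes had this order (506 of 10636, with 430 in the opposite order, against 87 as deposited), and so did 5 members, Pdhb, Dlat, Idh3g, Mdh1 and Acadvl, so of the 8 only Dlat and Mdh1 stayed in it.

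The deposited rows of a gene show where its difference lies, although what a row stands for is not given in the sources used here. The 40 members have 177 rows, 10 members have 1 row, and 26 have over 90% of their FPKM in 1 row. Acadm and Acsl1 are of the last kind. In Acadm the main row had 48.0 FPKM in KO MPTP 2, 45.7 and 45.1 FPKM in KO PBS 1 and 2, 50.5 FPKM in WT MPTP 1, and 67.7 FPKM in both WT PBS profiles. Its other rows together had between 2.94 and 5.02 FPKM in KO and between 3.31 and 4.24 FPKM in WT, with overlap.

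In Dlat, 1 of the 2 main rows carried most of the difference. Row 5 had 16.6 FPKM in KO MPTP 2, 16.1 FPKM in each KO PBS profile, 17.5 FPKM in WT MPTP 1, and 26.7 and 25.9 FPKM in WT PBS 1 and 2. Row 6 had 15.1 FPKM in KO MPTP 2, 13.1 and 12.9 FPKM in KO PBS 1 and 2, 14.4 FPKM in WT MPTP 1, and 16.4 and 16.1 FPKM in WT PBS 1 and 2. In row 5 the WT PBS values stood far above the other 4, and in row 6 they were only slightly above KO MPTP 2.

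In Ogdh the rows differed in direction. Row 6 had 25.0 FPKM in KO MPTP 2, 24.5 and 23.4 FPKM in KO PBS 1 and 2, 24.9 FPKM in WT MPTP 1, and 35.7 and 37.0 FPKM in WT PBS 1 and 2. Row 3 had 6.42 FPKM in KO MPTP 2, 4.82 and 5.06 FPKM in KO PBS 1 and 2, 6.15 FPKM in WT MPTP 1, and 4.14 FPKM in both WT PBS profiles. The WT PBS values were thus the highest in row 6 and the lowest in row 3. The rows were not tested.

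**Figure D4:**
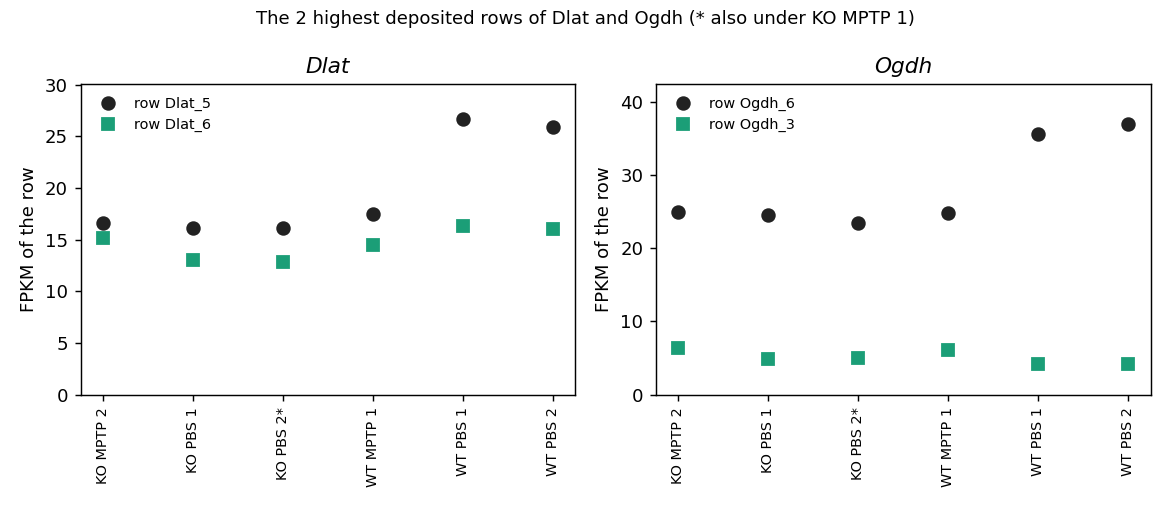
FPKM of the 2 highest deposited rows of Dlat (left) and Ogdh (right) in the 6 separate profiles, KO left of WT. In Dlat row 5 and Ogdh row 6 both WT PBS points stand far above the other 4. In Dlat row 6 they are only slightly above KO MPTP 2, and Ogdh row 3 has its lowest points in WT PBS.

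Neighbouring genes of these pathways were read from lists chosen by function. Other TCA cycle and pyruvate genes (24 tested of 27 listed), other mitochondrial fatty acid oxidation genes (16 of 21), peroxisomal fatty acid oxidation genes (16 of 20) and ketone body genes (6 of 7) held no gene called by limma in any of the 6 comparisons, nor with TMM rescaling. At an unadjusted limma p under 0.05, between 0 and 3 genes of a list stood in any 1 comparison, against between 286 and 983 of all 10636 genes. The 3 were of the 16 other mitochondrial fatty acid oxidation genes, for KO against WT over both treatments, where 372 of 10636 genes stood. The highest means in these lists were those of Sdhc and Sdha, subunits of succinate dehydrogenase (138 and 92.1 FPKM), Hsd17b10 and Ech1 of mitochondrial oxidation (42.9 and 41.0 FPKM), Scp2 and Cat of peroxisomes (93.1 and 53.5 FPKM), and Oxct1 of ketone metabolism (164 FPKM). For KO PBS against WT PBS, the median of these lists lay between -0.09 and -0.08 on the log2 scale, against -0.06 over all genes and -0.10 for the members.

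Of 17 transcriptional regulators of oxidation, 10 were tested, and 4 were called in at least 1 comparison, among them Ppargc1a, the targeted gene. MPTP in WT called 4 of the 10, against 0.254% of all genes, and KO PBS against WT PBS called 2, against 0.226%. The genotype comparisons under MPTP and over both treatments called 1 each, against 0.132% and 0.0752%. Without toxin, Tfam, which maintains and transcribes mitochondrial DNA, had 11.02 and 11.81 FPKM in KO PBS 1 and 2, against 16.7 and 17.7 FPKM in WT PBS 1 and 2, and fell by 0.59 on the log2 scale (limma adjusted p = 0.0278). With MPTP in WT, Tfam had 10.2 FPKM, against those WT PBS values (-0.70, adjusted p = 0.00966). Ppard, a fatty acid receptor, had 17.8 FPKM in WT MPTP 1, against 27.6 and 29.0 FPKM in WT PBS (-0.64, adjusted p = 0.00966). Rxra, its partner, had 23.1 FPKM in WT MPTP 1, against 34.4 and 33.2 FPKM in WT PBS (-0.53, adjusted p = 0.0224). In KO the MPTP differences of these 3 did not pass the test, at -0.33 for Tfam (adjusted p = 0.346), -0.48 for Ppard (0.0845) and -0.42 for Rxra (0.133). With TMM rescaling Ppard and Rxra passed in KO too (0.00333 and 0.00735), and the interaction called none of the 3 on either scale. Ppargc1a differed by -0.90 with MPTP in WT (adjusted p = 0.00448), by -2.39 between KO PBS and WT PBS (3.5e-06) and by -1.39 between KO MPTP and WT MPTP (0.00138). Over all profiles its difference between KO and WT was -2.14 (1.83e-06), and -2.12 with an adjusted p of 0.0551 with TMM rescaling. All 4 regulators have a row off the relations between columns, as Acsl1 does.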

How the data were processed

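RNA was extracted with a Qiagen RNAeasy kit from sorted cells and made into Illumina libraries, per the labels' protocols. The authors deposited 1 table of 67355 rows and 12 columns. CASAVA 1.5, Bowtie 0.12.7, TopHat, Cufflinks and the build mm9 are named, with no role or order, per the submitters' processing notes. No header states the unit, and the deposited values were taken as FPKM because Cufflinks writes that unit. The annotation is not given in the sources used here. The files give no depth, and counting intervals are therefore left out.

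Rows were summed per symbol into 21135 genes, leaving out 1 row in which a cell held text. The tolerance of the relations between columns was 0.0101 FPKM for the multiples and 0.00995 FPKM for the means, which is what rounding to 2 decimals allows. Comparisons between groups used limma 3.58.1 in R 4.3.3 on log2(FPKM + 1), with the prior variance following the mean level. That scale understates changes of low genes. The fit held 5 profiles and 1 mean per group. Its residual degrees of freedom were 1, supplied by the replicate pair of WT PBS, and its prior degrees of freedom 9.09, so groups with 1 profile are taken to vary as that pair does. KO against WT over both treatments used 6 profiles, with 4 residual and 13.7 prior degrees of freedom. P-values were adjusted by Benjamini-Hochberg over the 10636 genes tested within each comparison, at a threshold of 0.05. TMM factors were computed from the FPKM values. The procedure was tested on simulated data.

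The members and all lists were chosen with earlier results of these data known. Full values are given for every called member, log2 differences for the 4 most positive and 4 most negative members of each comparison, and means for the 6 of highest mean. Alternatives were a pseudocount of 0.1, no filter on low values, TMM rescaling, all 12 columns as libraries, genes off the relations left out, KO PBS 2 counted under either treatment, a replicate block, treatment as a covariate and each profile left out.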

Additional observations from a re-analysis of the deposited data

How the results depend on the processing

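The 7 called values of members kept their direction in all 73 alternatives run and stayed called in 55. Without the filter on low values, 0 members were called in each comparison. With genes off the relations left out, 0 members were called with MPTP in WT, with MPTP in KO and between genotypes under MPTP, and 2 between KO PBS and WT PBS, because Acsl1 is one of the genes left out and Ogdh had a limma adjusted p of 0.0657. Calls over all genes then fell from 27 to 4 with MPTP in WT, from 31 to 12 with MPTP in KO and from 24 to 14 between KO PBS and WT PBS. With KO MPTP 1 counted as KO MPTP, 0 members were called with MPTP in WT, with MPTP in KO and between genotypes under MPTP. With TMM rescaling, MPTP in WT called 4 members, among 43 of all genes tested. A pseudocount of 0.1 called 2 members between KO PBS and WT PBS, among 20 of all genes, with limma adjusted p of 0.0541 for Acadm and 0.0727 for Ogdh. Taking all 12 columns as libraries, which counts computed columns as replicates, called 19 members with MPTP in WT, 15 between KO PBS and WT PBS, 16 between genotypes under MPTP, 3 in the interaction and 10 over both treatments. It called 2150 genes in all with MPTP in WT and 1023 over both treatments. Treatment as a covariate called 1 member over both treatments, Acsl1.

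Leaving out 1 profile, with KO PBS 2 counted as KO PBS in the comparisons of 2 groups and in the interaction, gave between 0 and 2 members with MPTP in WT, between 2 and 4 for KO PBS against WT PBS, 0 or 1 in the interaction, where Acsl3 was called without WT PBS 2, and between 0 and 4 for KO against WT over both treatments, where WT MPTP 1 left out gave Acadm, Acsl1, Dlat and Ogdh. MPTP in KO and the genotype difference under MPTP kept 1 called member. With the replicate block, 5 members were called over both treatments. For KO PBS against WT PBS it called 4 members, among 39 of all genes tested. The labels do not say that a replicate number marks a shared batch. The deviations of WT PBS 1 and KO PBS 1 correlated at 0.23 across genes, and 2 pairs are too few to settle whether the numbers pair the samples.

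Of 512 alternative values of named members, 34 changed sign, all of them of members not called. For MPTP in KO these were Acsl3 (0.746 with the block) and Cpt2 (0.049 with the block, 0.028 with KO PBS 2 counted as KO PBS, 0.028 to 0.089 with a profile left out). For KO PBS against WT PBS they were Cpt2 (-0.021 with 12 columns, -0.022 with the block and with KO PBS 2 counted, -0.083 to -0.003 with a profile left out) and Suclg2 (-0.038 in those 3 settings, -0.115 to 0.040 with a profile left out). Between genotypes under MPTP they were Pcx, Suclg2 and Acaa1a (-0.091, -0.035 and -0.064 with 12 columns, and -0.080, -0.022 and -0.052 with KO MPTP 1 counted), and Acaa1a with the block (-0.073). In the interaction it was Cpt2 (0.044 with the block, 0.001 with KO PBS 2 counted, -0.017 to 0.062 with a profile left out). Over both treatments Idh3a had -0.006 with 12 columns and -0.012 to 0.042 with a profile left out, and Acsl4 had -0.029 to 0.083 with a profile left out. Apart from what the construction of an alternative shows, the cause was not tested.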

Other observations

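Between the 2 WT PBS profiles, 2 of all genes tested differed by more than 2 on the log2 scale, Acsl3 and Lpin2, a phosphatidate phosphatase of lipid synthesis, and they were high in different profiles. Lpin2 had 15.9 FPKM in KO MPTP 2, 14.7 and 14.3 FPKM in KO PBS 1 and 2, 14.3 FPKM in WT MPTP 1, and 24.3 and 194.8 FPKM in WT PBS 1 and 2. WT PBS 1 minus WT PBS 2 was -2.95 on the log2 scale for Lpin2, against 3.08 for Acsl3. As in Acsl3, 1 row of Lpin2 carried the excess, with 19.8 FPKM in WT PBS 1 and 191 FPKM in WT PBS 2. The median size of the difference between these 2 profiles was 0.05 for the members and 0.07 for all genes tested.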
